A study of Mus musculus with 12 samples.

Results

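The genes described are Nr0b1, Nr5a2 and Esrrb, 3 of 22180 genes measured on 12 expression arrays of mouse pluripotent cells and tissue. They code for orphan nuclear receptors, and were chosen by name, with earlier results of these data known. Each gene is read by 1 probe set that carries its symbol alone. The arrays fall into 6 groups of 2. The strain labels name OCT4-deltaPE-GFP, a green fluorescent reporter of Oct4, for all 12 arrays, crossed with C57BL/6 for ESC and EpiSC. Embryonic stem cells (ESC) came from the E3.5 embryo (embryonic day 3.5), at passages 20 to 25. Their medium held CHIR99021 (3 µM, an inhibitor of GSK3), PD0325901 (1 µM, an inhibitor of MEK) and LIF (10 µg/ml as labelled). Epiblast stem cells (EpiSC) came from the E5.75 embryo, at passages 20 to 25, in FGF2 (12 ng/ml), Activin A (20 ng/ml) and KSR serum replacement (20%). The lines titled rsEpiSC, which other label fields call IS-EPI, came from E5.75 or from E6.5, in IWR1 (2.5 µM, an inhibitor of Wnt signalling) and 20 ng/ml of a factor that the labels leave unnamed. All these lines shared N2B27 medium and a layer of mouse embryonic fibroblasts (MEF). The last groups were epiblast tissue taken from E5.75 and from E6.5 embryos, uncultured. For rsEpiSC and tissue the number after C57BL and, for rsEpiSC, the upper passage count up from array to array, so these were not used. The labels do not say whether the arrays of a group are separate lines, cultures or litters, so p-values measure the spread between these samples only, which may be technical.

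Nuclear receptors are transcription factors with a domain that in many of them binds a hormone; those called orphan were found before any ligand was known. In mouse ESC the proteins of these 3 genes belong to the network that holds naive pluripotency, the state of the epiblast before implantation. Nr5a2, also called LRH-1, and Esrrb bind DNA at a half-site extended at its 5′ end. Nr5a2 supports transcription of the Oct4 gene Pou5f1, and Esrrb is released from repression by Tcf7l1 when GSK3 is inhibited. Nr0b1, also called Dax1, lacks the usual DNA-binding domain and acts mostly as a corepressor of other nuclear receptors, Nr5a family members among them.

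The 250 bases before the start of transcription are given because this is where a receptor half-site next to a core promoter could be read, and because Nr0b1 and Esrrb fell together outside ESC. Sequences are from RefSeq (GRCm38.p6), 5′ to 3′ on the gene's strand, for the most upstream start where a gene has several. Capitals mark matches, on either strand, to AGGTCA, the core half-site, or to TATAAA, the TATA box.
Nr0b1 (chrX:86191525-86191774, + strand): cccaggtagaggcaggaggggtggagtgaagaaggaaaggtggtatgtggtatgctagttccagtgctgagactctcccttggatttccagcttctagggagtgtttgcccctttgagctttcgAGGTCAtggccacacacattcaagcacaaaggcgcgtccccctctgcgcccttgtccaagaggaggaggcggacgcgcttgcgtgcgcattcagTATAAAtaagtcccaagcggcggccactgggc
Nr5a2 (chr1:136960449-136960698, - strand): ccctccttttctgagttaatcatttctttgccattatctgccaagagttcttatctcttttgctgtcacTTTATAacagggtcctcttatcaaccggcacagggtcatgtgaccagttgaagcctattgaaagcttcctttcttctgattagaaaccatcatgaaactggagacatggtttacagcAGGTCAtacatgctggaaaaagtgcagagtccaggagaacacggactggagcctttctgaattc
Esrrb (chr12:86360867-86361116, + strand): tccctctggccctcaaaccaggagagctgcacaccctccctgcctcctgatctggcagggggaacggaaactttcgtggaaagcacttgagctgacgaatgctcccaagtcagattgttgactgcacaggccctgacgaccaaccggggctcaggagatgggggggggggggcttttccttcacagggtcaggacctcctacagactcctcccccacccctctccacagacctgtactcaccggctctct

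The extended half-site AAGGTCA was in none of the 5 windows of these genes (1 start of Nr0b1, 2 of Nr5a2 and 2 of Esrrb), and in 4.08% of 32851 promoter windows of the same length. The core AGGTCA, which AAGGTCA contains, began 126 bases before the Nr0b1 start and 64 bases before the upstream Nr5a2 start, and was in 14% of all windows. A TATAAA match began 32 bases before the Nr0b1 start, on the gene's strand. That of Nr5a2 began 181 bases before the upstream start and lay on the opposite strand (TTTATA as printed). TATAAA was in 12.4% of all windows. The other windows, the downstream start of Nr5a2 and both of Esrrb, held neither. These are letter matches only, and the array does not tell which start was used. The search for AGGTCA and TATAAA was added later than that for AAGGTCA.

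The Nr0b1 signal, on the log2 scale of the deposited table, was 10.72 and 9.47 in ESC, against 2.75 and 3.02 in EpiSC. The rsEpiSC lines read 2.84 and 3.18 (E5.75 origin) and 3.68 and 3.03 (E6.5 origin). In tissue it was 3.93 and 5.17 at E5.75 and 3.85 and 3.39 at E6.5. Both ESC arrays were far above the other 10, and no array outside ESC exceeded the 5.17 of epiblast E5.75 replicate 2.

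The Nr5a2 signal was 8.81 and 7.33 in ESC and 7.69 and 7.43 in EpiSC, so these groups overlapped. It was 3.78 and 3.72 in rsEpiSC of E5.75 origin, 3.86 and 4.16 in those of E6.5 origin, 4.92 and 4.58 in tissue at E5.75, and 4.76 and 4.14 at E6.5. The 4 arrays of ESC and EpiSC all lay above the other 8, with nothing measured between 4.92 and 7.33; 3.1% of all genes had these 4 arrays above the other 8.

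The Esrrb signal was 6.62 and 6.80 in ESC, and 3.56 and 4.18 in EpiSC. The rsEpiSC lines read 3.85 and 4.20 (E5.75 origin) and 4.25 and 4.08 (E6.5 origin). In tissue it was 4.36 and 3.60 at E5.75 and 4.75 and 4.41 at E6.5. As for Nr0b1, both ESC arrays were above the other 10, which was so for 5.02% of all genes. Signals of different probe sets cannot be set against each other, and the table has no detection call, so a signal of 3 to 5 does not show that a transcript was absent. In bulk RNA, fewer cells with a transcript and less of it per cell cannot be told apart.

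**Figure D1:**
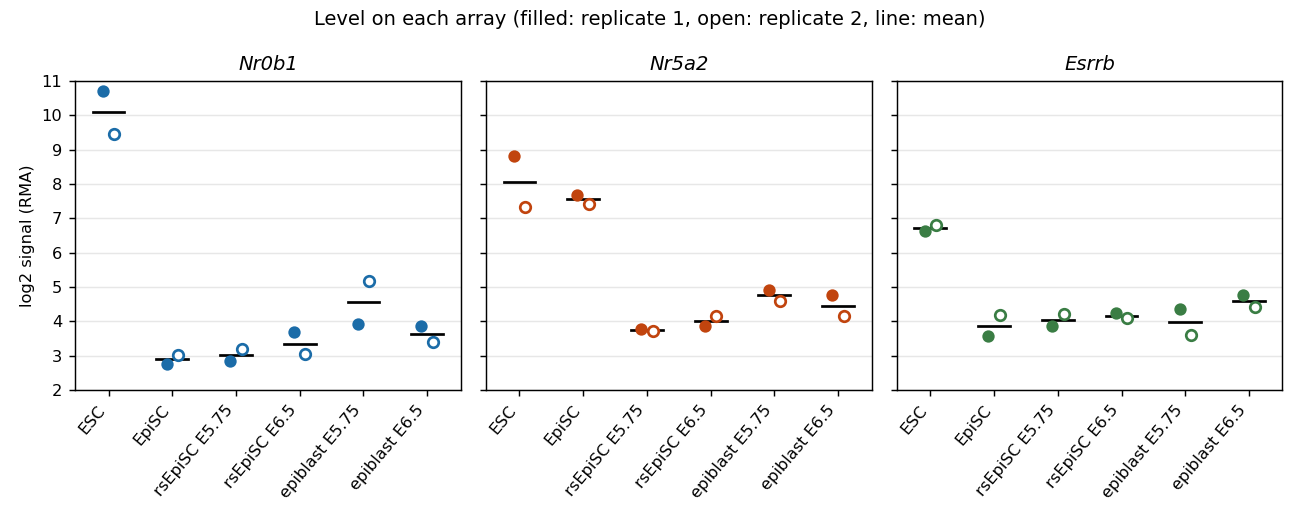
Log2 signal (RMA) of Nr0b1, Nr5a2 and Esrrb on each of the 12 arrays, by group; filled points are replicate 1, open points replicate 2 and lines the mean of the 2 arrays. Nr0b1 (9.47 to 10.72) and Esrrb (6.62 to 6.80) are high in ESC alone of the 6 groups, while Nr5a2 is high in ESC and EpiSC (7.33 to 8.81) and between 3.72 and 4.92 elsewhere.

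Marker lists separated ESC from the other groups, while single markers did so less evenly. The mean log2 signal of 17 partners of the naive network was 8.37 to 8.74 on ESC arrays and 5.22 to 5.80 on the others. That of 13 markers of the epiblast after implantation was 5.13 to 5.59 in ESC and 6.31 to 8.11 elsewhere. Fgf5, a marker of the later epiblast, did not pass against ESC in EpiSC (1.92 ± 0.65, adjusted p = 0.125) or rsEpiSC E5.75 (0.62 ± 0.65, adjusted p = 0.738). Sox2 had a mean of 6.86 in EpiSC against 10.60 in ESC, and the naive marker Dppa3 one of 6.64 in epiblast E5.75 against 6.88 in ESC. The signal of Pou5f1, the Oct4 gene, averaged 7.03 in ESC, 5.83 in EpiSC, and 5.72 (E5.75) and 5.79 (E6.5) in tissue. It was lower in rsEpiSC, with means of 4.36 (E5.75 origin) and 5.03 (E6.5 origin). On replicate 2 of the former it was 3.86, below that array's median of 4.63. The reason for these low Pou5f1 values was not tested. Signals spread less over genes on the tissue arrays (interquartile range 2.23 to 2.68) than in cultured cells (3.07 to 3.31). The median gene differed by -0.19 between EpiSC and epiblast E5.75, but genes of low signal varied in this. Mir181a-1 had means of 1.33 in EpiSC and 3.28 in epiblast E5.75, and Ptprc of 2.54 and 2.87. Differences between cells and tissue are given without correction for such shifts.

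In the comparison of EpiSC with ESC, lines of the epiblast after and before implantation, Nr0b1 and Esrrb fell and Nr5a2 did not pass. Differences are between group means ± the standard error of limma's fit on all 12 arrays (n = 2 a group), and rose or fell is written of genes with an adjusted p under 0.05 over all genes. Nr0b1 fell by 7.20 ± 0.46 (adjusted p = 4.09e-06), a signal ratio of 148 (95% interval 74.1 to 294). Esrrb fell by 2.84 ± 0.31 (adjusted p = 0.000175), a ratio of 7.18 (4.49 to 11.5). Nr5a2 differed by -0.51 ± 0.41 (adjusted p = 0.677), with an interval from -1.40 to 0.39, which leaves room for a ratio of up to 2.65. So 2 of the 3 genes fell, where 2.7% of all genes did. Whether the difference of Nr5a2 itself differs from that of the others was not tested. It depended on the ESC arrays: without replicate 1 it was 0.23 (adjusted p = 0.883) and without replicate 2 it was -1.25 (adjusted p = 0.0688).

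Both rsEpiSC groups and both tissues were lower than ESC for all 3 receptors. These comparisons share the ESC arrays, so they are not independent. For Nr0b1 the difference was -7.08 for rsEpiSC of E5.75 origin, -6.74 for those of E6.5 origin, -5.54 for tissue at E5.75 and -6.47 for tissue at E6.5, each ± 0.46, with limma's adjusted p-values of 1.66e-05 or less. For Nr5a2 it was -4.32, -4.06, -3.32 and -3.62 in the same order, each ± 0.41, with limma's adjusted p-values of 0.000266 or less. For Esrrb it was -2.68, -2.55, -2.73 and -2.13, each ± 0.31, with limma's adjusted p-values of 0.00071 or less. So all 3 fell in each of the 4 groups; the share of all genes that fell was 4.8%, 4.55%, 10.8% and 9.76% in the same order of groups.

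Among lines derived at E5.75 in different media, Nr5a2 differed and the other receptors did not pass. Compared with EpiSC, rsEpiSC E5.75 had less Nr5a2 signal, which fell by 3.81 ± 0.41 (adjusted p = 0.000362), a ratio of 14 (7.53 to 26.1); 2.31% of all genes fell. In rsEpiSC E6.5 against EpiSC it fell by 3.55 ± 0.41 (adjusted p = 0.000586), a ratio of 11.7, against 2.56% of all genes, but there the stage of derivation differs as well. Nr0b1 differed between rsEpiSC E5.75 and EpiSC by 0.13 ± 0.46 (interval -0.86 to 1.12) and Esrrb by 0.16 ± 0.31 (-0.52 to 0.84); neither passed, and the intervals leave room for ratios of up to 2.17 and 1.79. Each medium holds several agents. The mean signal of fibroblast markers differs as well (6.17 in EpiSC, 5.70 in rsEpiSC E5.75), and line and passage may. Which of these goes with the level of Nr5a2 cannot be told apart.

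EpiSC were also set against the tissue of the stage they came from. Nr5a2 was higher in EpiSC than in epiblast E5.75 by 2.81 ± 0.41 (adjusted p = 0.000721), a ratio of 7.02 (3.78 to 13.1), and than in epiblast E6.5 by 3.12 ± 0.41 (adjusted p = 0.000438). Of all genes 12.6% and 11.2% were higher in these comparisons. In rsEpiSC E5.75 against epiblast E5.75 Nr5a2 did not pass (interval -1.89 to -0.10, adjusted p = 0.102), nor did it in rsEpiSC E6.5 against epiblast E6.5 (-0.44 ± 0.41, adjusted p = 0.523; 12.5% of all genes passed there). Nr0b1 was lower than in epiblast E5.75 both in EpiSC (-1.67 ± 0.46, adjusted p = 0.0211) and in rsEpiSC E5.75 (-1.54 ± 0.46, adjusted p = 0.0325), where 11.4% and 10% of all genes fell. Both calls were lost in 3 of 4 fits with an array left out. Epiblast E5.75 replicate 2 had an Nr0b1 signal 1.24 above replicate 1, and without it the differences were -1.05 (adjusted p = 0.129) and -0.92 (adjusted p = 0.183). Without replicate 1 of EpiSC the former was -1.53 (adjusted p = 0.111) and without replicate 2 it was -1.80 (adjusted p = 0.0622). Without replicate 1 of rsEpiSC E5.75 the latter was -1.37 (adjusted p = 0.168) and without replicate 2 it was -1.71 (adjusted p = 0.0951). After quantile normalization they were -1.44 and -1.36 and did not pass. Of the 6 nearest measured genes of Nr0b1, all of low signal, 3 also passed as lower in EpiSC than in this tissue. For rsEpiSC E5.75 the count was 3 as well, and none passed as higher. Samt3 had means of 1.94 in EpiSC and 3.27 in the tissue, and Gm14762 of 2.60 and 3.71, while Gm41 differed less (3.78 and 3.86). Whether the lower Nr0b1 signal goes beyond such a shift of low signals was not tested. Esrrb passed in none of the 10 pairs of groups without ESC by limma's adjusted p, with 1 pair at an unadjusted p under 0.05, EpiSC against epiblast E6.5 (-0.72 ± 0.31, adjusted p = 0.123). The pairs that cross stages, rsEpiSC E5.75 with epiblast E6.5 and rsEpiSC E6.5 with epiblast E5.75, called 17.3% and 16.1% of all genes, and none of the 3 receptors passed; at an unadjusted p under 0.05 Nr0b1 did in the latter (-1.20 ± 0.46, adjusted p = 0.0909).

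**Figure D2:**
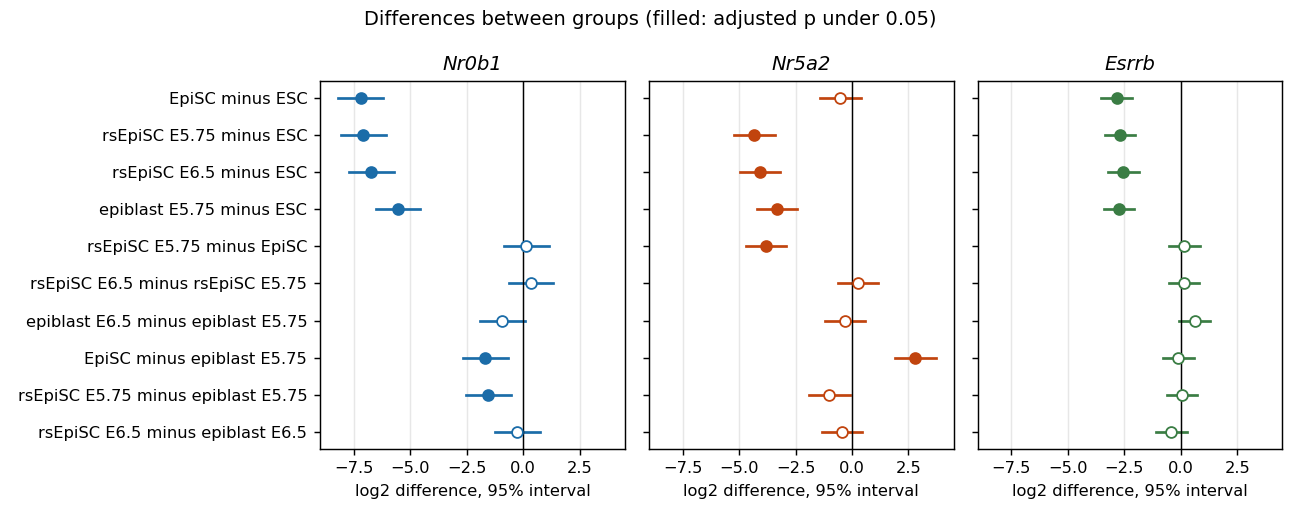
Log2 differences of the 3 receptors between groups (first minus second) with 95% intervals of limma's fit; filled points have an adjusted p under 0.05 and open points do not. Nr0b1 and Esrrb are lower than ESC in every row that holds ESC, while Nr5a2 has an open point in EpiSC minus ESC (-0.51) and filled ones in rsEpiSC E5.75 minus EpiSC (-3.81) and EpiSC minus epiblast E5.75 (2.81).

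Between E5.75 and E6.5, none of the 3 receptors passed in limma, in lines or in tissue, and none was at an unadjusted p under 0.05. In rsEpiSC E6.5 against E5.75, Nr0b1 differed by 0.34 ± 0.46, Nr5a2 by 0.25 ± 0.41 and Esrrb by 0.14 ± 0.31, each with an adjusted p of 1. In epiblast E6.5 against E5.75 the values were -0.93 ± 0.46 for Nr0b1 (adjusted p = 0.421), -0.30 ± 0.41 for Nr5a2 (adjusted p = 0.808) and 0.61 ± 0.31 for Esrrb (adjusted p = 0.443). These comparisons called 0.0857% and 0.0225% of all genes in either direction, shares that moved with single arrays: 0.0135% to 0.0676% for the lines, lowest without rsEpiSC E6.5 replicate 1, and 0% to 0.699% for tissue, highest without epiblast E5.75 replicate 2. The interaction term, which tests whether the difference between stages differs between lines and tissue, did not pass either (0.00902% of all genes did); it was 1.27 ± 0.64 for Nr0b1 (adjusted p = 0.617), 0.56 ± 0.58 for Nr5a2 (adjusted p = 0.824) and -0.47 ± 0.44 for Esrrb (adjusted p = 0.803).

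Ordered by mean level, Nr0b1 ran from ESC (10.09) through epiblast E5.75 (4.55), epiblast E6.5 (3.62), rsEpiSC E6.5 (3.35) and rsEpiSC E5.75 (3.01) to EpiSC (2.89). The step from ESC to the next group passed, and no later step between neighbours did. Nr5a2 ran from ESC (8.07) and EpiSC (7.56), which did not differ beyond their spread, to epiblast E5.75 (4.75), epiblast E6.5 (4.45), rsEpiSC E6.5 (4.01) and rsEpiSC E5.75 (3.75), with the passing step between EpiSC and epiblast E5.75. For Esrrb the order was ESC (6.71), epiblast E6.5 (4.58), rsEpiSC E6.5 (4.16), rsEpiSC E5.75 (4.03), epiblast E5.75 (3.98) and EpiSC (3.87), again with a passing step after ESC only. EpiSC thus held the lowest mean of Nr0b1 and of Esrrb and the second-highest of Nr5a2.

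The ESC replicates stood apart for some receptors more than for others. Replicate 1 was above replicate 2 by 1.25 for Nr0b1 and 1.48 for Nr5a2, gaps that 4.3% and 2.59% of all genes reached in ESC, while Esrrb differed by -0.17. The number of the 17 naive network partners higher on replicate 1 ran from 6 (epiblast E5.75) to 14 (rsEpiSC E5.75) in the groups other than ESC. In ESC it was 11, between arrays with medians of 4.64 (replicate 1) and 4.58 (replicate 2), so the count alone does not set the partners apart. By size, some had wide gaps in ESC: Tcl1 was at 8.69 and 7.36, Zfp42 at 10.47 and 9.39 and Nanog at 11.51 and 10.54. Of the partners higher on replicate 2, Tbx3 had the widest gap (9.90 and 10.41). Wide gaps were thus not particular to Nr0b1 and Nr5a2. Nr0b1 lies on the X chromosome, and markers of the sex chromosomes differed between the same arrays. Xist, the RNA that silences the X, was at 5.96 and 5.64 in ESC and 9.84 and 8.72 in EpiSC. It was at 8.23 and 10.19 in rsEpiSC of E5.75 origin and 3.17 and 2.65 in those of E6.5 origin. The Y-linked Eif2s3y was at 2.72 and 8.19 in ESC, 1.81 and 2.86 in EpiSC, and 5.16 and 2.33, then 7.64 and 7.36, in the rsEpiSC of E5.75 and E6.5 origin. In tissue, Xist ran from 8.41 to 9.05 and Eif2s3y from 8.10 to 8.55. The ESC array with the higher Nr0b1 signal was the one with the lower Eif2s3y signal; the part of sex in these values was not tested.

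Among 45 measured nuclear receptor genes (42 besides these 3, of 46 listed), Nr0b1 had the largest absolute difference in 3 comparisons with ESC, those of EpiSC, rsEpiSC E5.75 and epiblast E5.75. Esrrb came next in EpiSC, where Nr5a2 was at place 13, and Nr5a2 and then Esrrb came next in the other comparisons. Between rsEpiSC E5.75 and EpiSC, Nr5a2 was at place 1, Esrrb at 28 and Nr0b1 at 30. The closest paralogs did not pass in any of these 4 comparisons. In EpiSC against ESC, Nr0b2, also a receptor without the usual DNA-binding domain, was at -0.13 ± 0.21, Nr5a1, also called SF-1, at -0.15 ± 0.23, Esrra at 0.02 ± 0.26 and Esrrg at -0.05 ± 0.32. Group means ran only from 3.32 to 3.91 for Nr0b2 and from 3.62 to 3.90 for Nr5a1, signals from which a fall could hardly show. Esrra alone of the 4 passed with a group outside these comparisons: it was lower in epiblast E6.5 than in ESC (-0.87 ± 0.26, adjusted p = 0.0352) and than in EpiSC (EpiSC minus tissue 0.89 ± 0.26, adjusted p = 0.0306).

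Of the 42 other receptors, 1 rose and none fell in EpiSC against ESC (by limma's adjusted p; 3 rose and 2 fell at an unadjusted p under 0.05; median difference -0.01, all genes 0.00; 3.6% of all genes rose). The gene was Nr6a1, also called GCNF, which represses Pou5f1 during differentiation (0.97 ± 0.25, adjusted p = 0.0361), and Nr2f6 (0.89 ± 0.32) and Nr1d1 (0.84 ± 0.52) did not pass. With an array left out Nr6a1 passed in 0 of 4 fits (adjusted p from 0.053 to 0.151), and the 1 call made without EpiSC replicate 2 was Nr1d1 (1.91, adjusted p = 0.0119). Between rsEpiSC E5.75 and ESC 3 rose and 2 fell (median -0.02, all genes 0.02; 5.49% of all genes rose and 4.8% fell). Among them were Nr2f2, also called COUP-TFII (2.20 ± 0.40), Nr6a1 (2.01 ± 0.25), the glucocorticoid receptor gene Nr3c1 (-1.14 ± 0.28) and the vitamin D receptor gene Vdr (-0.96 ± 0.24). In epiblast E5.75 against ESC 4 rose and 3 fell (median 0.11, all genes 0.18; 10.6% and 10.8% of all genes). Of the 5 calls in rsEpiSC, 2 to 4 were made with an array left out (3 and 4 without ESC replicates 1 and 2, 2 without either rsEpiSC array), and of the 7 in tissue 2 and 5 without ESC replicates 1 and 2, and 3 and 6 without those of the tissue. In tissue, those that fell were Nr4a1, an immediate early gene (-2.23 ± 0.30), Ppard (-1.46 ± 0.32) and the retinoic acid receptor gene Rara (-1.10 ± 0.26), and Hnf4g was among those that rose (1.05 ± 0.28).

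Where Nr5a2 fell, in rsEpiSC E5.75 against EpiSC, 4 other receptors rose and 1 fell (median -0.02, all genes 0.02; 1.56% of all genes rose). The COUP-TF genes Nr2f2 (1.95 ± 0.40, adjusted p = 0.0179) and Nr2f1 (1.16 ± 0.23, adjusted p = 0.0159) rose, as did Nr4a2 (1.11 ± 0.24). Nr3c1 fell by 1.75 ± 0.28 (adjusted p = 0.00381). The circadian receptor genes Nr1d1 (-1.64 ± 0.52, adjusted p = 0.128) and Nr1d2 (adjusted p = 0.274) did not pass. With an array left out the called genes changed: Nr3c1 passed in 3 of 4 fits, Nr2f2 in 1, and Nr2f1 and Nr4a2 in 0, while Nr1d1, which ran from -2.72 to -0.57, passed in 1, without EpiSC replicate 2 (adjusted p = 0.00293). The count of 5 moved with single arrays: without rsEpiSC E5.75 replicate 1 the count was 0, without replicate 2 it was 1, without EpiSC replicate 1 it was 1 and without EpiSC replicate 2 it was 3.

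**Figure D3:**
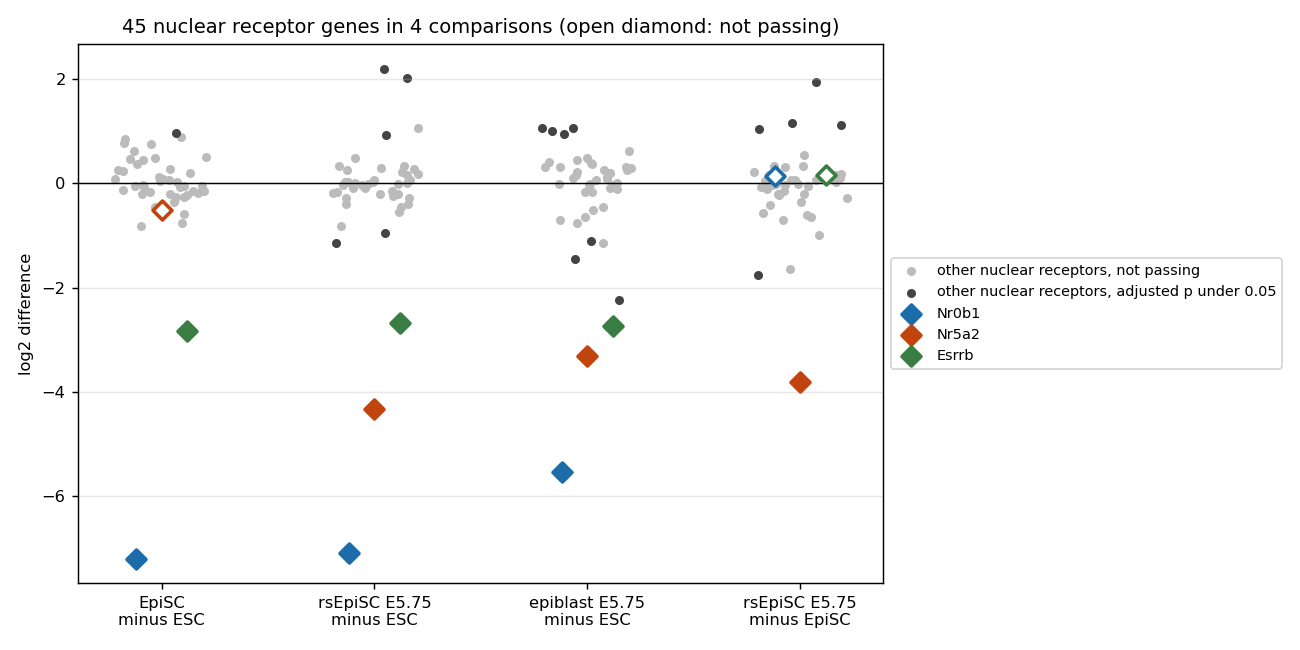
Log2 differences of 45 nuclear receptor genes in 4 comparisons; diamonds are Nr0b1, Nr5a2 and Esrrb (open where the adjusted p is 0.05 or more), dark points are other receptors that passed and grey points those that did not. The other 42 receptors lie between -2.23 and 2.20, and Nr5a2 is near them in EpiSC minus ESC (-0.51) but at -3.81 in rsEpiSC E5.75 minus EpiSC.

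Nuclear receptors act through coactivators and corepressors, of which 19 of 21 listed were measured. Ncoa3, a coactivator that binds Esrrb in ESC, fell in each of the 3 comparisons with ESC. It was at -1.87 ± 0.28 in EpiSC (adjusted p = 0.00144), -2.07 ± 0.28 in rsEpiSC E5.75 (adjusted p = 0.000442) and -2.57 ± 0.28 in epiblast E5.75 (adjusted p = 0.000102). It was the 1 coregulator that passed in EpiSC against ESC (median of the list -0.01; 2.7% of all genes fell). Lcor (-0.90 ± 0.33) and Ncoa4 (-0.80 ± 0.26) did not pass there. Against ESC, rsEpiSC E5.75 had 3 that fell, with Ncoa1 at -1.63 ± 0.36 and Ncoa4 at -1.50 ± 0.26, and Carm1, an arginine methyltransferase, rose (1.09 ± 0.27; median 0.26; 4.8% of all genes fell and 5.49% rose). In epiblast E5.75 against ESC 5 fell (median -0.18; 10.8% of all genes fell), with Ncoa1 at -2.44 ± 0.36, the corepressor gene Nrip1 at -1.35 ± 0.27 and Lcor at -1.21 ± 0.33. No coregulator passed in limma between rsEpiSC E5.75 and EpiSC (4 at an unadjusted p under 0.05), where the largest differences were those of Hdac3 (1.01 ± 0.38) and Ncoa1 (-0.99 ± 0.36).

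The list of partners in the naive network holds genes of the state before implantation and others, such as Pou5f1, Sox2, Sall4 and Tcf7l1, that the later epiblast also uses. Against ESC, 12 of 17 fell in EpiSC (median -2.59; 2.7% of all genes), 13 in rsEpiSC E5.75 (median -3.84; 4.8%) and 14 in epiblast E5.75 (median -2.40; 10.8%). The zinc finger gene Zfp42 (Rex1) was at -6.31 ± 0.42 and the T-box gene Tbx3 at -5.69 ± 0.29 in EpiSC. From EpiSC to rsEpiSC E5.75, 3 partners fell and 2 rose (median -0.20, all genes 0.02; 2.31% of all genes fell and 1.56% rose). The 5 calls were 3 without replicate 1 of EpiSC and 3 without replicate 2 of rsEpiSC E5.75. Those that fell were Nanog (-3.47 ± 0.35), Klf5 (-2.56 ± 0.31) and Pou5f1 (-1.47 ± 0.33), and Sox2 rose (3.26 ± 0.24). Nanog, Klf5 and Sox2 passed in each of 4 fits with an array left out, Pou5f1 in 1 (-1.98 to -0.97, adjusted p up to 0.307). Tfcp2l1 (adjusted p = 0.0974) and Stat3 (-0.72 ± 0.31, adjusted p = 0.316) did not pass. Klf5, like Nr5a2, was higher in EpiSC than in epiblast E5.75 (2.34 ± 0.31, adjusted p = 0.000364).

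**Figure D4:**
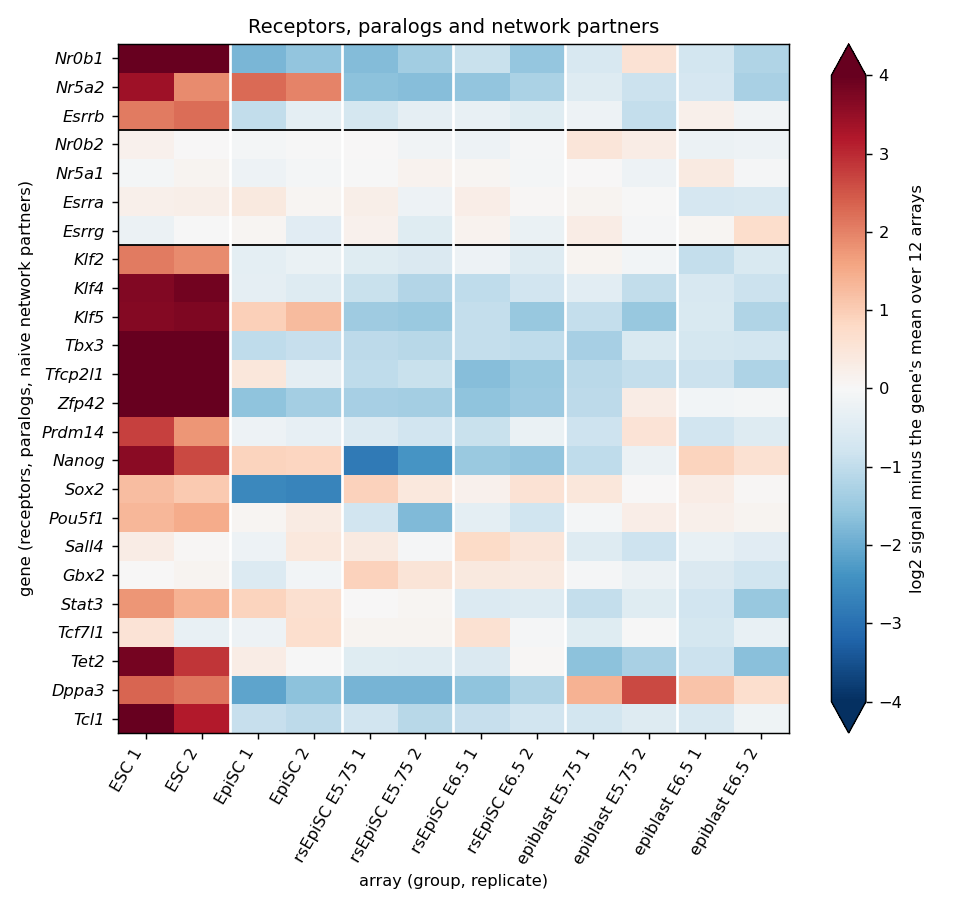
Log2 signal of each gene minus its mean over the 12 arrays (colour, cut at -4 and 4) for the 3 receptors, 4 paralogs and 17 naive network partners; columns are arrays, 2 for each group. Nr0b1 and Esrrb share with Zfp42, Tbx3 and Klf4 a high signal in ESC alone of the 6 groups, Nr5a2 and Klf5 are also higher in EpiSC than in rsEpiSC and tissue.

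The genes most like each receptor were ranked by Pearson's r over the 12 arrays, as a description, among 8901 genes whose group means span at least 1. Arrays of a group share their source, so the 12 points are not independent. For Nr0b1 they were P2rx7 (0.985), Zfp42 (0.982), Apoc2 (0.982), Epp13 (0.981) and Pdcl2 (0.978). For Esrrb they were Rtp3 (0.968), Slc17a9 (0.965), Tesc (0.964), Gpa33 (0.962) and Septin1 (0.960). Nr5a2 had other neighbours, Slco2a1 (0.977), which codes for a prostaglandin transporter, Cpt1a (0.970), which codes for an enzyme of fatty acid import into mitochondria, Cltb (0.959), Adamtsl5 (0.959) and Slc8b1 (0.956). Slco2a1 had means of 7.12 in ESC and 7.18 in EpiSC, and of 4.68 and 4.66 in rsEpiSC of E5.75 and E6.5 origin. Cpt1a followed with 7.74, 7.23, 4.11 and 3.86, and in tissue with 4.56 at E5.75 and 4.57 at E6.5. Between the receptors r was 0.911 for Nr0b1 and Esrrb, 0.619 for Nr0b1 and Nr5a2, and 0.563 for Esrrb and Nr5a2. Among network partners Klf5 (0.915) and Nanog (0.844) were the most like Nr5a2, and Sox2 was at -0.336. These partners were singled out after their values were seen.

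The 6 nearest measured genes of each receptor on its chromosome, 3 on each side in RefSeq order, were read in EpiSC against ESC and in rsEpiSC E5.75 against EpiSC. Of all genes 3.6% rose and 2.7% fell in the former, and 1.56% rose and 2.31% fell in the latter. Around Nr0b1 none passed in EpiSC against ESC by limma's adjusted p or at an unadjusted p under 0.05, with the nearest, Samt3 and Mageb4, at 0.07 ± 0.28 and -0.16 ± 0.26. Means of these 6 neighbours in ESC were only 1.82 to 4.07, below the array medians of 4.58 and 4.64. A fall from such signals could hardly show, so their lack of change says little. Around Esrrb 1 passed, in the opposite direction: Ift43, a gene of transport in cilia, rose by 1.60 ± 0.32 (adjusted p = 0.0088). Irf2bpl, on the other side of Esrrb, fell by 1.35 ± 0.30 in rsEpiSC E5.75 against EpiSC (adjusted p = 0.0255), with means of 8.35 in ESC, 7.97 in EpiSC and 6.62 to 7.11 in the other groups. Around Nr5a2, on chromosome 1, none passed in EpiSC against ESC by limma's adjusted p (1, Gm19705, at an unadjusted p under 0.05: -1.09 ± 0.31, adjusted p = 0.0635), but in rsEpiSC E5.75 against EpiSC the non-coding gene Gm19705 fell by 1.56 ± 0.31 (adjusted p = 0.0154). Its signal was 6.45 and 7.05 in ESC, 5.60 and 5.72 in EpiSC, and 4.05 and 4.15, then 3.96 and 4.21, in rsEpiSC of E5.75 and E6.5 origin. In tissue it was at 6.16 and 5.74 in epiblast E5.75 and 5.02 and 5.74 in epiblast E6.5. Platr22, which lies between Gm19705 and Nr5a2, was at -1.23 ± 0.39 (adjusted p = 0.127), and Zfp281 at -0.45 ± 0.26. In rsEpiSC E5.75 against ESC, where all 3 receptors fell, 2 of the 6 neighbours of Nr5a2 passed. The 3 at an unadjusted p under 0.05 were all lower. Around Esrrb 2 passed there, 1 higher and 1 lower, and around Nr0b1 none did. Of all genes 5.49% rose and 4.8% fell in that comparison, and with 6 neighbours a gene these counts are too small to set a region apart.

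Markers of other cells that the samples could hold moved with some of these comparisons. Of 17 fibroblast markers, 5 rose and 1 fell in EpiSC against ESC (3.6% and 2.7% of all genes), and 2 fell in rsEpiSC E5.75 against EpiSC (2.31% of all genes). Their mean signal was 4.96 to 5.04 in ESC, 4.84 to 5.06 in tissue and 5.97 to 6.37 in EpiSC, and in rsEpiSC 5.66 to 5.74 (E5.75 origin) and 5.16 to 5.27 (E6.5 origin). Visceral endoderm, which expresses Nr5a2 in the embryo, has 18 markers here, whose mean was 4.40 to 4.79 on cultured arrays and 4.94 to 5.17 in tissue. Single markers went both ways: against ESC 1 rose and 1 fell in EpiSC, and 4 rose and 1 fell in epiblast E5.75 (10.6% and 10.8% of all genes). In that tissue the rises were larger, with Spink1 at 4.47 ± 0.64, Lrp2 at 1.86 ± 0.37 and Dab2 at 1.56 ± 0.39, while Amn was at -0.87 ± 0.27. Spink1 had means of 8.55 in epiblast E5.75, 4.07 in ESC and 3.72 in EpiSC. The marker that rose in EpiSC was Lrp2 (3.42 ± 0.37). Extraembryonic ectoderm, which expresses Esrrb, has 15 measured markers of 17 listed, with means of 5.06 to 5.90 on cultured arrays and 5.16 to 5.53 in tissue. Of these, 2 rose and 2 fell in EpiSC against ESC, and 1 rose and 4 fell in epiblast E5.75 against ESC. The part of such cells in the receptor values was not tested.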

How the data were processed

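Total RNA of 12 samples was amplified before hybridization, per the labels' protocols, which name a human array although the probe set identifiers match a mouse platform table. The authors' deposited table holds log2 signals of 41345 probe sets, for which the submitters' processing notes name oligo and RMA; their versions are not given in sources used here. Values were used as deposited. Probe sets with 1 symbol (23521) were reduced to 22180 genes, keeping the highest mean over the 12 arrays for the 1082 genes with several; each receptor had 1 probe set. Genes of low signal were kept; all 3 receptors also pass the low-signal filter tried as an alternative. The number of arrays limits the precision.

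Group differences came from limma 3.58.1 under R 4.3.3 (lmFit on 6 group means, eBayes with a variance trend; 6 residual and 5.99 prior degrees of freedom), two-sided, with Benjamini-Hochberg adjustment over all genes within each of 15 pairs of groups and 1 interaction term. The script was tested on simulated data. The receptors, gene lists and comparisons were chosen with earlier results of these data known. Named genes are the receptors, Xist and Eif2s3y, paralogs, neighbours and 5 likest genes, and, per list and comparison, up to 4 members that passed and 2 that did not, by size; likeness left out predicted genes and small RNAs. Promoter sequences are from RefSeq, GRCm38.p6, less the 50 bases after the start. Alternatives were quantile normalization, centred arrays, a low-signal filter, every probe set, a replicate block, array weights, only the 4 arrays compared, and leaving out each array. The planned use of other probe sets could not be run, with 1 probe set for each receptor. The protein search that had been planned was not run.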

Additional observations from a re-analysis of the deposited data

How the results depend on the processing

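Against ESC, the calls of Nr0b1 and Esrrb in all 5 groups and of Nr5a2 in 4 kept direction and side of the threshold under every alternative run, as did those of Nr5a2 in rsEpiSC against EpiSC and in EpiSC against tissue. Nr5a2 in rsEpiSC E5.75 against EpiSC ran from -3.94 to -3.68 with an array left out and was -3.81 with the replicate block. Replicate deviations correlated between ESC and EpiSC at -0.260, the sign of crossed replicate numbers, and between other pairs of groups from -0.042 to 0.058. What the ESC and EpiSC arrays may share was not tested. The replicate block changed no call of the receptors (1288 genes called in EpiSC against ESC, 1396 without it). With the EpiSC numbers crossed, an alternative chosen after seeing the data, 1398 were called.

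The calls of Nr0b1 against epiblast E5.75 were lost in EpiSC with centred arrays (-1.44), quantile normalization (-1.44) and every probe set (-1.67; -2.29 to -1.05 with an array left out). In rsEpiSC E5.75 they were lost with centred arrays (-1.37), quantile normalization (-1.36), every probe set (-1.54) and the 4 arrays compared (-1.54; -2.16 to -0.92 with an array left out). The cause was not tested. With an array left out Nr0b1 in rsEpiSC E6.5 against epiblast E5.75 (-1.82 to -0.58) passed in 1 of 4 fits.

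Differences that had not passed changed sign with an array left out. For Nr0b1 these were rsEpiSC E5.75 against EpiSC (-0.04 to 0.30) and rsEpiSC E6.5 against epiblast E6.5 (-0.59 to 0.06). For Nr5a2 they were EpiSC against ESC (-1.25 to 0.23) and the tissue stages (-0.61 to 0.01). For Esrrb they were rsEpiSC E5.75 against EpiSC (-0.15 to 0.47), the rsEpiSC stages (-0.04 to 0.31), epiblast E5.75 against EpiSC (EpiSC minus tissue -0.49 to 0.27; 0.11 with centred arrays and 0.18 after quantile normalization), rsEpiSC E5.75 against epiblast E5.75 (-0.33 to 0.43), rsEpiSC E6.5 against EpiSC (-0.01 to 0.61) and against epiblast E5.75 (-0.19 to 0.56). In EpiSC against ESC so did Nr1d1 (-0.24 to 1.91), and in epiblast E5.75 against ESC Ncoa5 (-0.08 to 1.54), Tcf7l1 (-0.78 to 0.06) and Dppa3 (-0.86 to 0.39; 0.07 after quantile normalization).

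Counts over the other nuclear receptors moved as well. With every probe set they were 0 in EpiSC and 3 in rsEpiSC E5.75 against ESC, and 2 in rsEpiSC E5.75 against EpiSC. With the 4 arrays compared they were 0, 2 and, in epiblast E5.75 against ESC, 1. With array weights the last was 3, and with the low-signal filter the count in rsEpiSC E5.75 against EpiSC was 3. With an array left out they ran from 0 to 1, 2 to 4, 2 to 6 and, against EpiSC, 0 to 3. Coregulator counts were 2 in both rsEpiSC E5.75 and epiblast E5.75 against ESC with the 4 arrays compared, and 3 in the latter with array weights (1 to 2, 2 to 4 and 4 to 5 with an array left out). Partners called in rsEpiSC E5.75 against EpiSC were 3 with every probe set and 3 with the 4 arrays compared (3 to 4 with an array left out). Over all genes, EpiSC against ESC gave 558 calls with the 4 arrays compared, 856 with every probe set, and 829 to 1388 with an array left out; rsEpiSC E5.75 against EpiSC gave 858 calls, 444 with every probe set, 1567 with array weights and 318 to 626 with an array left out. Against epiblast E5.75, EpiSC gave 5321 calls (2316 with the 4 arrays compared, 3261 with array weights, 2458 to 6100 with an array left out) and rsEpiSC E5.75 4768 (2909 with the 4 arrays compared, 1627 to 5504 with an array left out). Epiblast E5.75 against ESC gave 4762 (1261 with the 4 arrays compared, 2280 with array weights, 2969 to 5465 with an array left out) and rsEpiSC E5.75 against ESC 2282 (1490 with every probe set, 2762 with array weights, and with an array left out 1027 to 2065, lowest without either rsEpiSC array). The rsEpiSC stages gave 19 calls (257 with array weights, 157 with the 4 arrays compared) and the tissue stages 5 (0 with array weights, 155 without epiblast E5.75 replicate 2). On the 6 group means or the 8 cultured arrays alone, r of the 15 likest genes was at least 0.962, but their places moved (Slc17a9 for Esrrb from 2 to 7 and 68).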
